A study of Homo sapiens with 32 samples.

Results

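The regions described here are the intron flanks at splice sites. A flank is the 100 nt of an intron that begins at its 5′ splice site, or the 100 nt that ends at its 3′ splice site. Introns were those of at least 1000 nt in the canonical transcript of each protein-coding gene (the transcript with the longest coding sequence where none was marked canonical), and a flank was dropped where any annotated isoform had an exon in it. Of 380702 intron ends on the GRCh37 genome, 192945 flanks were kept, 95724 at 5′ splice sites and 97221 at 3′ splice sites. They belonged to 107597 introns of 16877 genes, and 85348 introns kept both flanks. The 5′ flanks began with gt in 99.2% and the 3′ flanks ended with ag in 99.8%, as splice sites do. Of all flanks, 9422 lay in more than 1 gene on their strand, so that their tags cannot be given to a single gene.

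Tags in these flanks came from iCLIP, in which UV light crosslinks protein to RNA in living cells and the cDNA made after immunoprecipitation tends to stop at the crosslinked base. A tag is 1 deduplicated read, placed at the base before its start or at a deletion. All lines were human embryonic kidney cells, labelled HEK293T and called FlpIn-293 in the growth protocol, and built to take up transgenes at 1 recombination site. Stable lines expressed FLAG-tagged Alyref or Chtop, both subunits of the transcription and export complex TREX, FLAG-tagged Nxf1, the mRNA export receptor, or FLAG alone (Control). Tetracycline was added for 48 h to induce expression, at 5 ng/mL in the Nxf1 line and 10 ng/mL in the lines of Alyref and Chtop, and 10 µg of anti-FLAG antibody was used. Each group had 3 libraries, made up of 8 lane runs. The labels do not say whether these came from separate cultures, so the p-values measure the spread between libraries, which may be technical. Tagged protein from a transgene was measured, not the endogenous protein.

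Libraries held from 7017 tags (Control 1) to 631704 tags (Alyref 2), and the first library was the shallowest of each group. In Nxf1 1 and Control 1 the uracil share, which marks crosslinked bases, was highest 2 nt upstream of the assigned base (58.7% and 62.1%) and not at that base itself (44.3% in Nxf1 1). Their positions next to splice sites may therefore be shifted, and the comparisons were repeated without the first library of every group. Splice sites are read early in splicing. The U1 snRNP pairs with the 5′ splice site, SF1 and then the U2 snRNP bind the branch point, an adenine upstream of the 3′ splice site that attacks the 5′ splice site, and U2AF binds the polypyrimidine tract and the terminal ag. After the intron is removed, Alyref is known to be found on spliced mRNA near the exon junction complex. Reads in an intron flank come from RNA that still holds the intron, from the excised intron, or from spliced reads whose end was placed in the intron.

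The sequences below are the 30 bases with most distinct crosslinked bases in 5 of the flanks that were crosslinked at most different bases by the factors. They are read 5′ to 3′ on the strand of the gene (GRCh37), and capitals mark bases with a factor tag. The first 2 are 5′ flanks and the last 3 are 3′ flanks.
PRRC2B, chr9:134363520-134363549, plus strand: ttcTTtcctTcacgacctTgccTTtTCTTT
TSTD3, chr6:99974015-99974044, plus strand: gtcagttacagatcgaACTTGTTcTacTcT
LTB4R, chr14:24784789-24784818, plus strand: TCaggaAacCcttgGTcctcTactctCatg
OR1F1, chr16:3239690-3239719, plus strand: AatCccggacgagcccgGctTtTgGtGcag
RBM26, chr13:79894878-79894907, minus strand: CCTTttttttCTTtTCTTtttttttttttt
The marked bases of PRRC2B and RBM26 were mostly uracils in runs of pyrimidines, written as T. Those of LTB4R and OR1F1 fell on all 4 bases.

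Crosslinking in single flanks was sparse. Over the 9 factor libraries, 8184 of the 5′ flanks (8.55%) and 14324 of the 3′ flanks (14.7%) held at least 1 tag. Of these, 78.5% and 75.2% held just 1. The 5′ flanks took between 0.305% and 0.761% of the tags of a library and the 3′ flanks between 0.407% and 1.54%. Results are therefore given mainly as sums over flanks, whose members are not replicates. On the opposite strand of the same windows lay from 5.11% to 21.5% of the tags at 5′ flanks and from 3.77% to 9.47% at 3′ flanks.

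The plainest feature was at the 3′ splice site. A large part of all 3′ flank tags lay in the last 10 bases of the intron, and this part differed between libraries of 1 group. In Alyref libraries 1, 2 and 3 the share was 54.5% (95% Wilson interval 50.9 to 58.2), 47.6% (46.2 to 49.0) and 62.2% (60.9 to 63.5). In Chtop libraries it was 32.7% (27.3 to 38.6), 35.6% (33.9 to 37.3) and 65.8% (64.1 to 67.4). In Nxf1 libraries it was 33.3% (19.8 to 50.4), 24.0% (21.4 to 26.8) and 32.7% (29.9 to 35.6). The Control libraries gave 36.7% (24.7 to 50.7), 9.80% (7.83 to 12.2) and 15.9% (11.2 to 22.1). Intervals cover counting error only. All 3 Alyref libraries lay above all Nxf1 and Control libraries, while Chtop and Nxf1 overlapped. At the 5′ splice site the first 10 intron bases held between 5.25% and 12.2% of 5′ flank tags, so the pile-up was not seen at the other end of the intron.

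The very last base of the intron alone took 16.2% (95% Wilson interval 13.7 to 19.1), 15.8% (14.8 to 16.8) and 18.8% (17.8 to 19.8) of the 3′ flank tags of Alyref 1, 2 and 3. In Chtop libraries it took 5.77% (3.53 to 9.30), 11.3% (10.2 to 12.4) and 18.8% (17.5 to 20.2). A read that starts at the first base of the downstream exon gives its tag to this base, whether it came from spliced or unspliced RNA, and the deposited positions do not tell these apart. A read that starts a few bases earlier, in the end of the upstream exon, can be placed in the intron without a mismatch where the ends of the exon and the intron have the same letters. The ends of both were therefore compared in the 85348 introns with both flanks. This comparison, like the others by sequence at these bases, was chosen after the data were seen and is a description.

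A few 3′ flanks with many tags at these bases show what a match looks like. For each, the end of the upstream exon stands first and the end of the intron second, and capitals mark the last bases that are the same in both.
KHDC4 exon end, chr1:155895423-155895437, minus strand: gtatatttacatCAG
KHDC4 intron end, chr1:155893479-155893493, minus strand: gttatttctttgCAG
SCML1 exon end, chrX:17768399-17768413, plus strand: cagcaccaccttcAG
SCML1 intron end, chrX:17769920-17769934, plus strand: ccctctccattgaAG
CPLANE1 exon end, chr5:37221426-37221440, minus strand: ataaagatttttcAG
CPLANE1 intron end, chr5:37213835-37213849, minus strand: tgctgtattccttAG
KHDC4, an RNA-binding protein, matched over 3 bases and had 4 of its 8 factor tags at base -4. SCML1, a polycomb group protein, matched over 2 bases and had 6 of 7 at base -3. CPLANE1, a ciliogenesis protein, matched over 2 bases and had 3 of 6 at base -3. In each of them the fullest base was the one just before the matching letters.

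Over all introns, the fullest base was the last one, base -1, with 1674 Alyref tags. At the bases before it, the factors had a higher density in introns whose ends matched. At base -3, which lies just before the last 2 intron bases, Alyref had 27.8 tags per 1000 introns whose last 2 bases equal those of the upstream exon, against 3.49 in the other introns. Chtop had 15.2 against 1.95 and Nxf1 2.31 against 0.412. The Control had 13 tags in matching and 1 in other introns. At base -4, with 3 bases compared, the Alyref values were 30.1 and 2.23, at base -5 they were 24.4 and 1.70, and at base -6 they were 16.2 and 2.07. Matching introns had the higher density at base -3 in 10 of the 12 libraries. Nxf1 1 had 1 tag in each class and Control 1 had none. Farther from the splice site, at bases -11 to -100, the same introns differed little, and the ratio was 1.09 in Alyref, 1.02 in Chtop, 0.928 in Nxf1 and 0.938 in the Control.

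**Figure D1:**
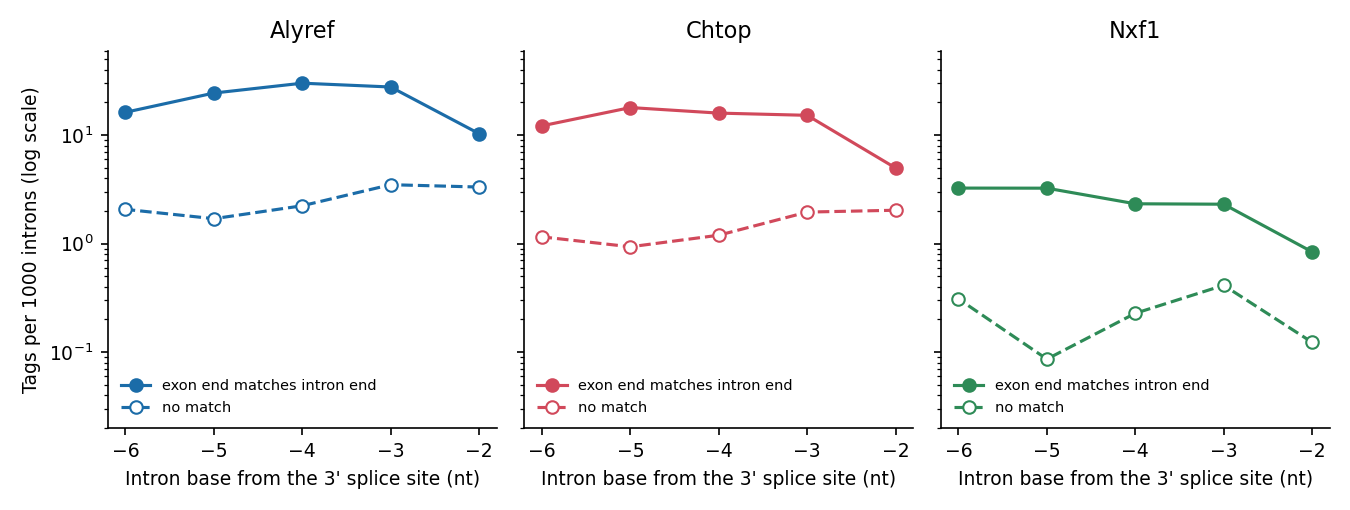
Tags per 1000 introns (log axis) at intron bases -6 to -2, for introns whose remaining bases to the 3′ splice site equal the end of the upstream exon (filled points, solid line) and for other introns (open points, dashed line). The filled points lie above the open ones at every base for Alyref, Chtop and Nxf1; at base -3 the Alyref values are 27.8 and 3.49.

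The exon side was low where the intron side was high. Alyref tags fell from 1229 at the 20th base before the exon end to 1050, 706, 329, 228 and 158 over the last 5 exon bases. Among introns whose upstream exon had at least 30 nt, the last 5 exon bases held 3763 fewer Alyref tags than 5 times the level 30 to 11 nt before the exon end. The last 10 intron bases held 4973 more than 10 times the level at bases -61 to -100. For Chtop the shortfall was 1560 and the excess 2648, for Nxf1 161.5 and 426.5, and for the Control 54 and 61. Summed over libraries the excess in the intron was larger than the shortfall in the exon in every group. In Chtop and Nxf1 this held whichever library was left out, but in Alyref and the Control it rested on single libraries. By library, the excess was larger in 9 of the 12. The shortfall was larger in Alyref 2 (excess 1830.5, shortfall 2054), Nxf1 1 (10.2 and 12.2) and Control 1 (13.2 and 18.8). Without Alyref 3 the Alyref excess was 2134 against a shortfall of 2306, and without Control 3 the Control excess was 43 against 47.2. How much of the excess came from spliced reads cannot be told apart from intron crosslinks at these bases, and the ratios and shares of 3′ flanks that were tested between groups are therefore given also without the 10 bases next to the splice site. Counts of flanks with a tag, shares of a library and tags per gene include these bases.

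**Figure D2:**
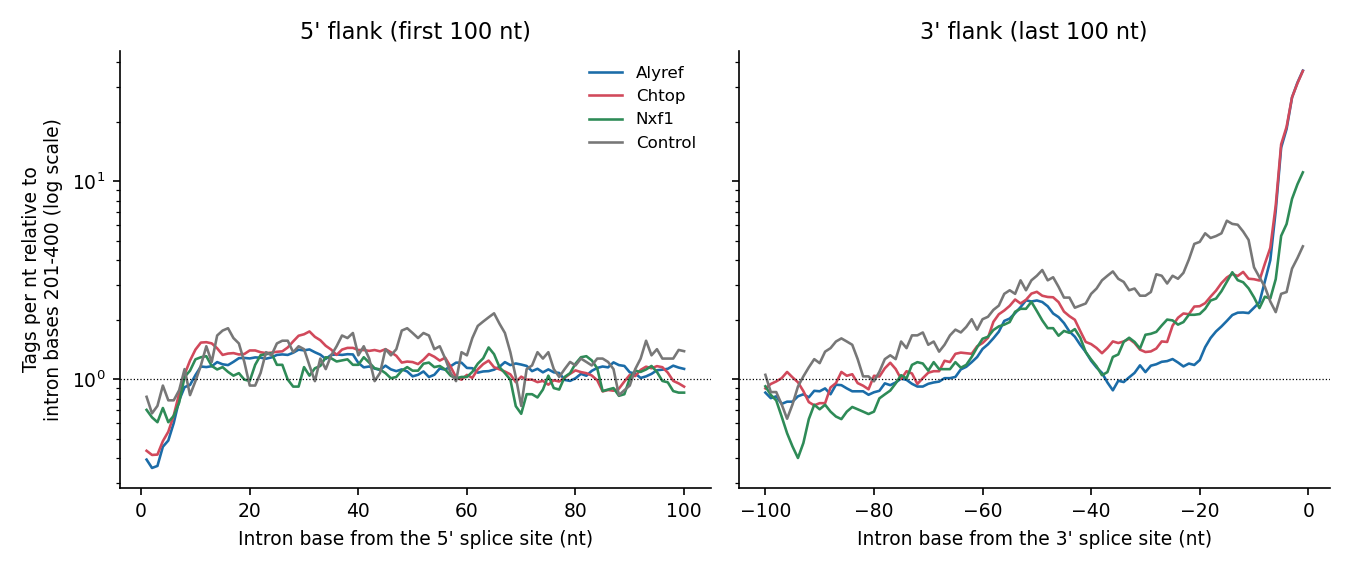
Tags per nt in 5′ flanks (left) and 3′ flanks (right) by intron base, relative to the mean of the neighbour window. This window is the 200 nt that end 400 nt inside the same introns. Values are smoothed over neighbouring bases and drawn on a log axis, with 1 line per group of 3 summed libraries. In the 3′ flanks Alyref, Chtop and Nxf1 show a broad rise around base -50 and rise steeply over the last 10 bases. The Control, in bins of 10 nt, goes from 2.99 at bases -31 to -40 to 2.71 at bases -51 to -60.

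The 3′ flanks had more tags per nt than the inside of the same introns. The log2 ratio to the neighbour window, the 200 nt that end 400 nt from the splice site, was 1.57, 1.30 and 1.50 in Alyref libraries 1, 2 and 3. It was 1.28, 1.28 and 2.03 in Chtop, 0.87, 1.05 and 0.78 in Nxf1 and 0.97, 1.75 and 0.52 in the Control. All 12 libraries were above 0, and the Control spanned nearly the whole range of the factors. The Nxf1 mean of 0.90 ± 0.14 (SD, n = 3) was 0.59 below the mean of the other factors, and every Nxf1 library was below every Alyref and Chtop library. The exact permutation test gave a two-sided p of 0.0238, the smallest possible for 3 against 6 libraries, and 0.25 after adjustment over 21 comparisons. Groups that did not overlap made up 9.52% of the comparisons between factors, none passed the adjusted threshold (0%) and 4 of 21 (19%) had an unadjusted p under 0.05.

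Without the last 10 bases this order was not seen. The Alyref ratios became 0.59, 0.51 and 0.23, the Chtop ratios 0.84, 0.79 and 0.60, and the Nxf1 ratios 0.46, 0.81 and 0.36. The Control gave 0.43, 1.75 and 0.42. Every library stayed above 0, so the 3′ flanks were denser than the inside of the intron also away from the splice site. Nxf1 then differed from the other factors by -0.05 (exact permutation p 0.714). That of Alyref turned from 0.24 (exact permutation p 0.405) to -0.20 (exact permutation p 0.214). Control 2, at 1.75 in both versions, lay within the range of the other libraries with these bases and above all of them without.

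The 5′ flanks exceeded the inside of the intron by much less. The log2 ratio to the neighbour window was 0.50, 0.16 and 0.12 in Alyref libraries, 0.45, 0.16 and 0.34 in Chtop, 0.52, 0.18 and -0.00 in Nxf1 and -0.03, 0.54 and 0.22 in the Control. The groups overlapped, and the smallest exact permutation p of a factor against the others was 0.714 (n = 3 against 6). By position, the first 10 bases, which hold the site that U1 pairs with, were low, with 0.640 of the density of the neighbour window in Alyref, 0.739 in Chtop, 0.819 in Nxf1 and 0.931 in the Control. Bases 11 to 40 were higher, with 1.22 to 1.34 in Alyref and 1.43 to 1.51 in Chtop. In the same bins Nxf1 had 1.12 to 1.22, and the Control had 1.37 to 1.45. Bases 11 to 40 were thus above the first 10 in the Control too, but its values did not peak there. Its highest bin was bases 61 to 70, at 1.67 from 68 tags, against 1.45 from 59 tags at bases 31 to 40. Alyref, Chtop and Nxf1 were highest at bases 31 to 40, and at bases 61 to 70 they were at 1.14, 1.13 and 1.14. Uracil made up 28.7% of the first 10 bases and from 30.5% to 31.6% of bases 11 to 40. Within the first 10 it was uneven, with 99.3% at base 2 but 0.0108%, 2.69%, 11.4% and 8.07% at bases 1, 3, 4 and 5. The part of base composition in the low first 10 bases was not tested.

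The balance of 3′ to 5′ flanks within the same introns also turned on the last bases. The log2 ratio was 0.80 ± 0.25 (SD, n = 3) in Alyref, 0.77 ± 0.45 in Chtop, 0.33 ± 0.30 in Nxf1 and 0.54 ± 0.69 in the Control. Without the 10 bases at each end, the means were -0.36, -0.08, -0.12 and 0.30. On average Alyref thus had more tags in 5′ than in 3′ flanks once these bases were set aside. Its difference from the other factors, -0.26, did not pass the exact permutation test (p 0.238), nor did that from the Control, -0.65 (exact permutation p 0.3).

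**Figure D3:**
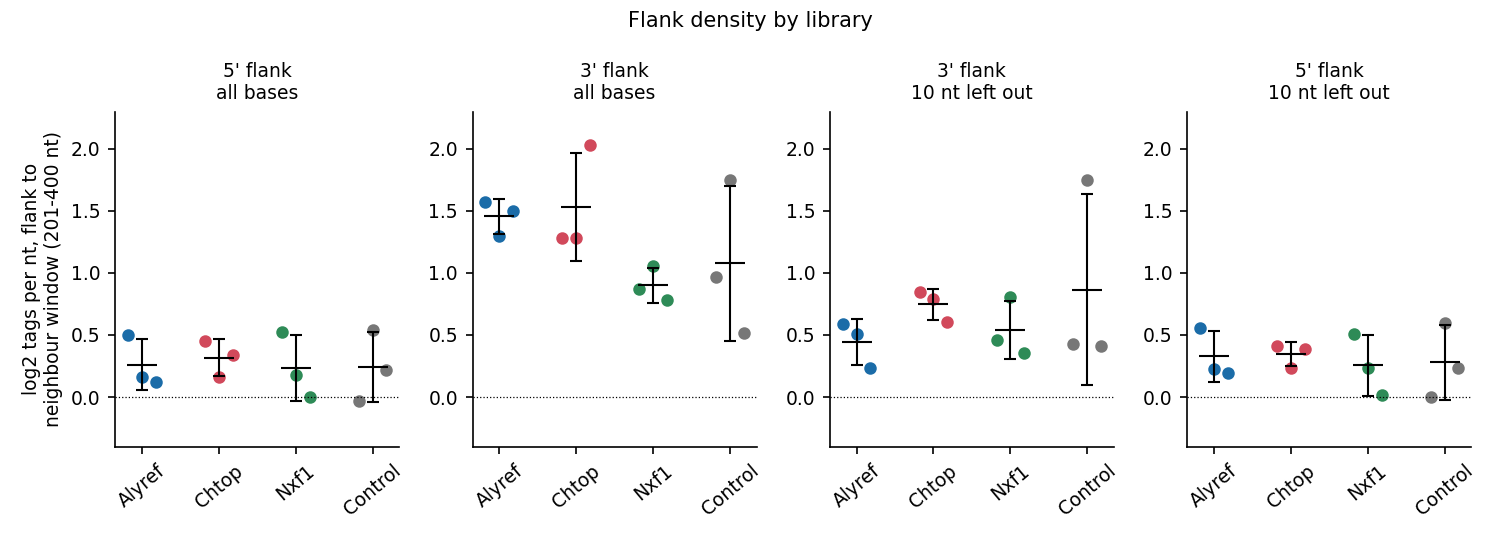
Log2 ratio of tags per nt in flanks to the neighbour window for each library (points, in replicate order within a group), with the mean and SD of 3 libraries (bars), for all flank bases and with 10 nt next to the splice site left out. The 3 Nxf1 points lie below all Alyref and Chtop points in the second panel and among them in the third.

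Upstream of the polypyrimidine tract the 3′ flanks had a second rise in the factors, around bases -41 to -60. Per nt, tags there were 2.46, 2.79 and 1.75 times those of bases -71 to -100 in Alyref libraries 1, 2 and 3. The ratios were 1.62, 2.42 and 2.05 in Chtop, 2.25, 2.64 and 2.13 in Nxf1 and 4.5, 2.19 and 1.88 in the Control, where the first rests on 15 and 5 tags. The rise was seen in all 12 libraries, the Control included, and the groups overlapped. It rested on many introns, since the 1668 Alyref tags there came from 1494 flanks. The uracil share was 32.9% at bases -41 to -50, 32.3% at -51 to -60 and 31.6% at -71 to -80. Counted per uracil, Alyref tags were at 1.69 and 1.70 of the neighbour window in the first pair of these 3 bins and at 0.844 in the last. The shares of the other bases were not counted by position, and the part of base composition was not tested.

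Because branch points usually lie shortly upstream of the polypyrimidine tract, the positions of these tags were read against a branch-point-like motif, CTNAC, on the sense strand with its A between bases -45 and -15. This was chosen after the rise was seen, and no test was made. The motif was found in 17505 of the 3′ flanks (18.0%), and 16093 held it once. The same length of the neighbour window held it in 9.25%, and its complement was in 5.81% of the flanks. A match does not mark a branch point in use. A few flanks with tags upstream of the motif illustrate the spacing, with tagged bases and the motif in capitals.
GRB10, chr7:50800084-50800113, minus strand: TTTTTttttttttctggcttggcttCTCAC
INO80E, chr16:30016480-30016509, plus strand: agtCTcctgaggccccagtgcctccCTGAC
FKBP4, chr12:2906254-2906283, plus strand: cctTTctgccccaaaccctggggtaCTCAC
GRB10, a signalling adaptor, had 5 factor tags in this window, all from Alyref. INO80E, a subunit of the INO80 chromatin remodeller, had 2 from Alyref and 1 each from Chtop and Nxf1. FKBP4, a co-chaperone, had 3 from Alyref and 1 from the Control.

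Over the flanks with 1 motif, tags were most frequent 25 to 29 nt upstream of its A in every group. This bin held 105 Alyref, 57 Chtop, 27 Nxf1 and 13 Control tags, and the bin 35 to 39 nt upstream held 34, 24, 7 and 6. The A lay at a median of 27 nt from the splice site, and 57.8% lay at 20 to 30 nt. From such an A, the bin 25 to 29 nt upstream falls within bases -41 to -60. Whether the tags keep their distance to the motif or to the splice site was not tested. The density 23 to 30 nt upstream was 2.71 times that 36 to 51 nt upstream in Alyref, and 2.45 times in Chtop, 2.31 in Nxf1 and 4.2 in the Control. The ratio exceeded 1 in 10 of 12 libraries. Nxf1 1 had no tag in either window, and Control 1 had 0 and 1. By intron base, the fullest bin of the summed factors was -41 to -45 where the A was 15 to 20 nt from the splice site, -46 to -50 for 21 to 28 nt, -56 to -60 for 29 to 35 nt and -51 to -55 for 36 to 45 nt. It thus lay farther upstream over the first 3 classes and back again in the last. Chtop alone did not show this order, with -51 to -55 in both of the first classes and -46 to -50 in the last. Smoothed over 11 nt, the peak of the summed factors was at -47, -49, -54 and -49, and that of Nxf1 at -45, -47, -38 and -36, so the order depends on the group and on the binning. Flanks without the motif also had more tags per nt at bases -41 to -60 than at bases -71 to -100. The ratio was 2.21 in Alyref, 2.19 in Chtop, 2.44 in Nxf1 and 1.95 in the Control. A ratio above 1 was thus limited neither to flanks with these letters nor to tagged factors.

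**Figure D4:**
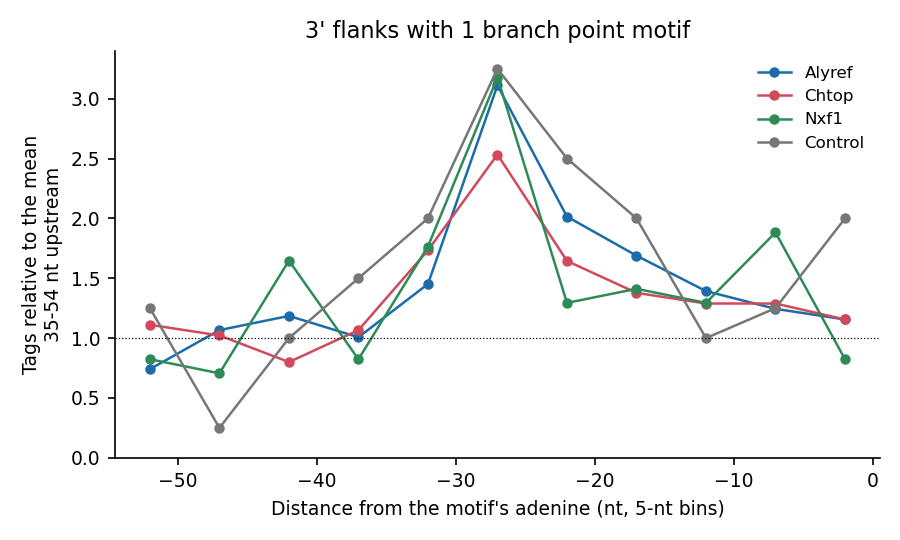
Tags in 5-nt bins by distance from the A of the motif, in 3′ flanks with 1 motif, relative to the mean of the bins 35 to 54 nt upstream. Each line is a group of 3 summed libraries, and each has its highest point in the bin 25 to 29 nt upstream, which holds 105 Alyref and 13 Control tags.

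The polypyrimidine tract, the stretch that U2AF binds, was read from bases -25 to -11, beyond the 10 bases next to the splice site. Flanks were classed by the number of uracils in bases -25 to -5. Alyref tags per nt relative to bases -71 to -100 were 0.852 with 0 to 6 uracils, 1.33 with 7 to 9, 1.86 with 10 to 12 and 4.03 with 13 to 21. Chtop had 1.17, 1.85, 2.45 and 6.60, Nxf1 1.5, 2.03, 3.17 and 6.58, and the Control 1.43, 2.24, 3.29 and 9.15. All groups rose with the uracil count, and Alyref was the lowest in every class. From the first to the last class, tags per 1000 flanks at bases -25 to -11 rose less than these ratios. They went from 7.30 to 16.7 in Alyref, 5.71 to 14.5 in Chtop, 2.22 to 7.01 in Nxf1 and 1.06 to 5.63 in the Control. Part of the rise in the ratios thus came from fewer tags at the reference bases. These are sums over libraries, with no spread between them. Control 2 held 714 3′ flank tags, against 49 in Control 1 and 170 in Control 3, so the Control values rest mainly on Control 2. Crosslinking itself favours uracil, whose part in this order was not tested.

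**Figure D5:**
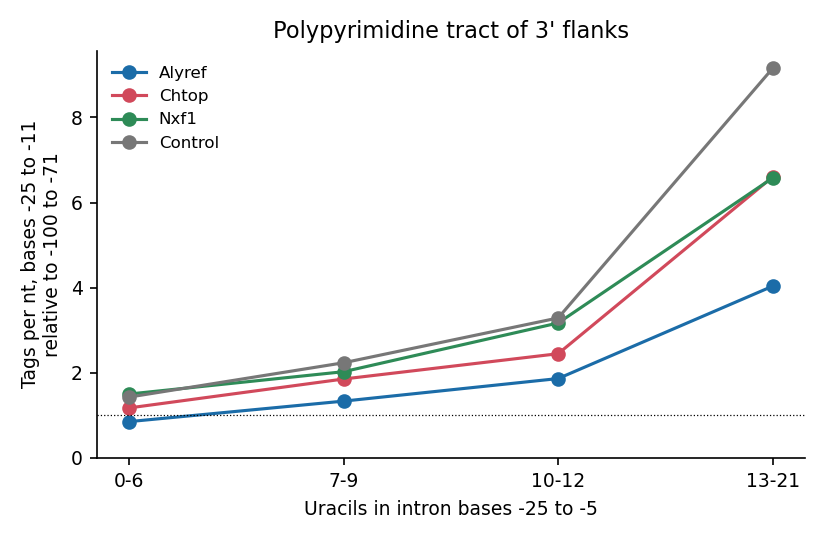
Tags per nt at bases -25 to -11 relative to bases -71 to -100 of 3′ flanks, by the number of uracils in bases -25 to -5, with 1 line per group of 3 summed libraries. All lines rise with the uracil count, to 4.03 for Alyref and 9.15 for the Control in the class of 13 to 21 uracils.

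As a share of all 3′ flank tags, bases -30 to -4 held 28.1% ± 3.72 (SD, n = 3) in Alyref, 31.8% ± 3.04 in Chtop, 38.0% ± 4.46 in Nxf1 and 36.8% ± 7.66 in the Control. Libraries overlapped, and Nxf1 was higher than the mean of Alyref and Chtop by 8.03 points (exact permutation p 0.0476, adjusted 0.25). As bases -30 to -11 of -100 to -11, without the 10 bases next to the splice site, the means were 28.9%, 32.4%, 38.5% and 29.7%, and Nxf1 exceeded Alyref and Chtop by 7.80 points (exact permutation p 0.119, adjusted 0.417). The tagged base of 3′ flanks was uracil for 36.4% (95% Wilson interval 32.9 to 39.98), 43.2% (41.8 to 44.6) and 38.4% (37.2 to 39.7) of tags in Alyref 1, 2 and 3. The shares were 46.5% (40.6 to 52.6), 47.6% (45.8 to 49.3) and 35.5% (33.8 to 37.2) in Chtop and 48.5% (32.5 to 64.8), 51.1% (48.0 to 54.3) and 51.2% (48.1 to 54.2) in Nxf1. The Control varied most, with 36.7% (24.7 to 50.7), 60.5% (56.9 to 64.0) and 57.6% (50.1 to 64.8). All Nxf1 libraries were above all Alyref and Chtop libraries, by 8.99 points on average (exact permutation p 0.0238, adjusted 0.25). Without the 10 bases next to the splice site the group means were 55.3% (Alyref), 54.7% (Chtop), 57.3% (Nxf1) and 51.7% (Control). The libraries then overlapped, and the mean of Nxf1 was higher than that of the others by 2.27 points (exact permutation p 0.405).

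Exons next to the flanks were crosslinked far more than the flanks. The log2 ratio of tags per nt in the last 50 nt of the upstream exon to the first 50 nt of the intron was 4.10, 4.46 and 4.42 in Alyref libraries and 3.13, 3.89 and 4.19 in Chtop. It was 3.94, 2.89 and 2.10 in Nxf1 and 4.10, 1.83 and 0.89 in the Control. The shallow first libraries of Nxf1 and the Control were high, and the others were below all Alyref libraries. Alyref exceeded the other factors by 0.97 (exact permutation p 0.0476, adjusted 0.25).

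At the 3′ splice site, the first 50 nt of the downstream exon were set against intron bases -50 to -4. The log2 ratio was 3.42, 3.89 and 3.58 in Alyref, 3.21, 3.56 and 3.62 in Chtop, 3.75, 2.18 and 1.70 in Nxf1 and 3.10, 0.17 and 0.75 in the Control. All Alyref and Chtop libraries were above all Control libraries, by 2.29 and 2.12 on average (exact permutation p 0.1 each, the smallest that 3 against 3 libraries allow, adjusted 0.764). Control 1 lay just below Chtop 1, and without the 10 bases on each side of the splice site the Chtop libraries overlapped with the Control (exact permutation p 0.3), which left Alyref as 1 of 21 (4.76%). These 2 were the comparisons with the Control whose groups did not overlap (9.52% of 21), and none passed the adjusted threshold. Spliced mRNA and RNA that holds the intron both give exon tags, so the ratio does not measure binding to one of them.

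Flanks were also summed by where the intron lay in the gene, with no test. With the 10 bases next to the splice site left out, the 5′ flanks of first introns were not above the inside of the intron, as the log2 ratio was -0.15 in Alyref, -0.07 in Chtop, -0.04 in Nxf1 and -0.09 in the Control. In middle introns the ratios were 0.28, 0.39, 0.11 and 0.55. Single Alyref libraries ranged from -0.34 to 0.32 in first and from 0.22 to 0.66 in middle introns, and so overlapped. Those of Nxf1 and the Control overlapped too. Chtop libraries did not, with -0.11 to 0.098 in first and 0.30 to 0.53 in middle introns. Per 1000 of these 5′ flanks, first introns held 52.2 Alyref, 39.0 Chtop, 20.2 Nxf1 and 4.06 Control tags. Middle introns held 60.5, 32.9, 12.4 and 5.68, so the ratios depend also on the neighbour window. For 3′ flanks, first and middle introns were alike for Alyref, at 0.43 and 0.38. By length, 5′ flanks of introns over 10 kb gave 0.52 (Alyref), 0.55 (Chtop), 0.22 (Nxf1) and 0.62 (Control), and those of 1 to 3 kb gave 0.16, 0.18, 0.09 and 0.36. Intron order and length go together in human genes and were not separated. By donor sequence, 5′ flanks beginning with gtaagt gave 0.41, 0.50, 0.32 and 0.82 in the same order of groups, and those with gtgagt gave 0.13, 0.07, -0.20 and 0.24.

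A small group of introns carries other ends. Introns of the minor spliceosome can begin with at and end with ac, and 101 of the 5′ flanks began with at. These held 18 Alyref tags at bases 11 to 100, in 12 flanks, which is 178 per 1000 flanks against 60.9 for flanks that began with gt. Chtop had 10 tags in 5 of them, 99.0 per 1000 against 34.4. Nxf1 had 2 tags, 19.8 per 1000 against 14.1, and the Control 3, 29.7 against 5.37. The 93 flanks that ended with ac held 11 Alyref tags (118 per 1000 against 51.0 for flanks that ended with ag), 5 Chtop (53.8 against 33.9), 5 Nxf1 (53.8 against 15.0) and 3 Control tags (32.3 against 8.40). All groups, the Control included, were thus higher in these flanks. The counts are small and expression of these genes was not measured here, so no comparison was tested.

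The flanks with most distinct crosslinked bases were of varied genes. Among 5′ flanks, that of intron 28 of PRRC2B, a protein with roles in translation, had 22 factor tags at 17 bases. Alyref libraries had 1, 6 and 3 of these, Chtop 2, 4 and 3, Nxf1 0, 1 and 2, and the Control none. The flank of intron 2 of TSTD3 had 15 factor tags, 2, 0 and 5 in Alyref, 0, 0 and 1 in Chtop and 0, 3 and 4 in Nxf1, and 3 in Control 3. PRRC2B was tagged in 8 of the 9 factor libraries, and TSTD3 also in the Control.

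The 5′ flanks of SFPQ and DAZAP1, both RNA-binding proteins, of C21orf58 and of NFATC2IP, a partner of NFAT transcription factors, had 10 to 13 factor tags each. SFPQ also had 2 Control tags. Their introns had many tags further in too, with 42 in the neighbour window of C21orf58 and 27 in that of DAZAP1, so that crosslinking there was not limited to the flank. No tag lay in the neighbour window of TSTD3.

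Among 3′ flanks, that of intron 1 of LTB4R, a leukotriene receptor, had 16 tags at 16 bases, 6 from Alyref, 9 from Chtop and 1 from Nxf1. OR1F1, an olfactory receptor gene, had 18 at bases -33 to -86, 14 from Alyref, and 1 from the Control. RBM26, an RNA-binding protein, had 18, of which 12 came from Nxf1 3 alone, all at the pyrimidine run printed above. A single library thus carried most of the RBM26 value. ZNF711, a zinc finger protein, had 11 of its 16 tags in the last 10 bases, and SLC44A5, a choline transporter-like protein, 3 of 12. NPLOC4, a cofactor of the p97 ATPase, had 11 tags at bases -13 to -59, 8 of them from Chtop.

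Gene groups of RNA processing were counted at bases 11 to 100 of their flanks. SR proteins are splicing factors that bind exons, and 8 of 12 SR protein genes had a flank. Their 20 5′ flanks held 12 Alyref tags and their 15 3′ flanks held 6, which is 600 and 400 per 1000 flanks against 61.0 and 51.0 over all genes. SRSF3 held 5 of the 12 at its 5′ flanks, and SRSF6 held 3 at each end. The genes of hnRNP proteins, abundant binders of nascent RNA, had 365 and 278 per 1000 for Alyref, from 31 and 22 tags. Here HNRNPR, with 9 tags at 5′ flanks, and PCBP2, with 5 and 6, had the highest counts. TREX genes had 106 and 157 per 1000 (9 and 14 tags), and genes of splice site recognition 156 and 176 (12 and 13 tags). ALYREF and NXF1 themselves had no tag in their flanks in any group, and CHTOP had 2 Alyref tags.

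The other groups are read against their own value over all genes, since libraries differ in depth. Chtop had 100 and 133 per 1000 flanks in SR protein genes, from 2 tags at each end, and 58.8 and 101 in hnRNP genes, against 34.4 and 33.9 over all genes. Nxf1 had 50 and 0 in SR protein genes, from 1 tag in all, and 47.1 and 75.9 in hnRNP genes, against 14.2 and 15.0. Control values were 100 and 200 in SR protein genes, from 2 and 3 tags, and 35.3 and 63.3 in hnRNP genes, against 5.40 and 8.41. Relative to all genes, the SR protein genes were at 9.84 and 7.84 in Alyref and at 18.5 and 23.8 in the Control, and the hnRNP genes at 5.98 and 5.46 in Alyref and at 6.53 and 7.52 in the Control. The Control, from few tags, was thus not below Alyref in these groups. Expression of the genes enters all of these counts, and its part was not tested.

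To ask whether flanks of single genes differed between groups, tags were summed per gene over its 5′ flanks, 3′ flanks, the rest of its introns and its exons, and tested in 1 fit with edgeR. With the usual filter on low counts, 2536 gene regions were tested, and 0 of the 10576 flank sums with a tag were among them. No flank could therefore be called, and all calls of this fit were of exons or of introns beyond the flanks. A filter of 10 tags over all libraries, chosen after seeing the data, let 88 5′ and 324 3′ flank sums into the fit. It gave 16 calls at 13 flank sums over 6 comparisons, and in 5 of the 13 more than 50% of the tags came from 1 library. Most calls over all 20212 regions were higher in Alyref or Chtop, and most flank calls were lower. The higher calls were mostly of exons. Against the Control, 23.4% of exons and 1.47% of introns beyond the flanks were higher in Alyref, and 40.8% and 1.12% in Chtop. Of these introns, 0.139% were lower in Alyref and 0.437% in Chtop. In Chtop against Nxf1, 0.202% of them were higher and 1.98% lower. A sparse flank sum can pass this filter through the group where it is high, so the direction of these calls is no support for a difference. In Alyref against the Control, 12.7% of all regions and 0% of flank sums were higher, while 0.0891% of all regions, 1.14% of 5′ and 0.617% of 3′ flank sums were lower. In Chtop against the Control, 21.6% of all regions and 0.309% of 3′ flank sums were higher, and 0.218% of all regions, 1.14% of 5′ and 0.309% of 3′ flank sums were lower. In Alyref against Nxf1, 1.55% of all regions were higher and 0.0891% lower, the latter against 1.14% of 5′ flank sums. In Alyref against Chtop, 0.317% of all regions were higher and 1.51% lower, the latter against 0.309% of 3′ flank sums. No flank sum was called in Nxf1 against the Control, where 0.0594% of all regions were higher and 0% lower, while 2 of 88 5′ and 8 of 324 3′ flank sums were higher and 2 and 3 lower at an unadjusted p under 0.05. At the same p, 2869 of the 20212 regions were higher and 79 lower.

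The calls in this added fit were 3 flank sums higher in Chtop than in Nxf1 or the Control, and 10 lower in Alyref or Chtop than in another group. They are given as a description, since the filter can let a sum in through the group where it is high. One of the 10, ZYG11A, was lower in Alyref than in Chtop. ADGRV1, an adhesion receptor needed for hearing, had 1, 11 and 15 tags at its 3′ flanks in Alyref, 1, 7 and 12 in Chtop and none in Nxf1 or the Control. It was higher in Chtop than in Nxf1 by a log2 fold change of 5.41 (edgeR, Benjamini-Hochberg adjusted p 0.0257). BTAF1, an ATPase that acts on TBP, had 0, 10 and 7 tags in Chtop and none in Nxf1 (5.12, edgeR adjusted p 0.0423). BIRC6, an inhibitor of apoptosis, had 0, 9 and 14 tags in Chtop and none in the Control (5.57, edgeR adjusted p 0.0396). These fold changes against groups at 0 depend on edgeR's prior count and are no bounds.

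Among the lower ones, the 5′ flanks of PRDM2, a histone methyltransferase, had 0, 3 and 9 tags in Nxf1 and 0, 1 and 0 in Alyref (log2 fold change -4.70, edgeR adjusted p 0.00475). They had none in Chtop (-5.96, edgeR adjusted p 0.000584). The 5′ flanks of GNL3, a nucleolar GTP-binding protein, had 9 of 16 tags in Control 2 and were lower in Alyref (-5.01, edgeR adjusted p 0.00119) and Chtop (-2.83, edgeR adjusted p 0.0121). MAGI1, CDC16 and RBM26 were lower in Chtop than in Nxf1, with 8, 8 and 12 Nxf1 tags that all came from Nxf1 3. TSTD3 and WDR26 were also lower in Chtop than in Nxf1, and ADGRL1 was lower in Alyref than in the Control. The 3′ flanks of ZYG11A had 0, 5 and 5 tags in Chtop and none in Alyref. An unnamed gene, ENSG00000268533, had 10 of its 11 tags in Control 3. Of 3′ flank sums, 0.617% were called higher and 1.23% lower in Chtop than in Nxf1, where 10.2% and 1.18% of all regions were, and of 5′ flank sums 0% and 2.27%.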

How the data were processed

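The data were iCLIP tags of 12 libraries, 3 each of Alyref, Chtop, Nxf1 and Control. The deposited values are counts: for every crosslinked base of a library the authors give the strand and how many deduplicated reads marked it. Per the study's methods and the submitters' processing notes, phiX reads were removed with Bowtie 1.1.2, random barcodes were handled with UMI-tools 0.5.3 and reads were aligned to hg19 with STAR 2.4.2a. Only uniquely placed reads were kept, lanes were merged and duplicates removed by barcode, so that a tag is 1 cDNA. Placement of reads at exon ends, and the choice of the base before the read, act directly on tags next to splice sites.

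Flanks were taken from GENCODE release 44 on GRCh37. Of 113871 introns of at least 1000 nt, 17695 lost their 5′ flank and 16119 their 3′ flank to an annotated exon, and 452 and 531 flanks were repeats of another. The neighbour window could be set for 93006 5′ and 95070 3′ flanks. Ratios were taken from tags summed over flanks, and shares have 95% Wilson intervals. Mitochondrial tags were left out of the totals behind the shares of a library. Exon measures used exons of at least 50 nt.

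Each of 7 measures per library was compared by two-sided exact permutation tests, each factor with the other factors (84 splits) and with Control (20 splits), with Benjamini-Hochberg adjustment over 21 comparisons in each of these 2 families and a threshold of 0.05. Tags per gene and region were tested with edgeR 4.0.16 (quasi-likelihood, TMM, filterByExpr, all libraries in 1 fit) in R 4.3.3, and alternatively with DESeq2 1.42.0. Python 3.11.15, NumPy 2.4.6 and SciPy 1.17.1 were used, and the count test was checked on simulated data. Named flanks were the 6 of each kind with most distinct crosslinked bases over the factor libraries, at most 1 a gene, outside chromosome 8 and in 1 gene only, and the flank sums called by edgeR. Sequences are given for the first 3 of each kind, of which 1 is not reported here. KHDC4, SCML1 and CPLANE1, and GRB10, INO80E and FKBP4, were chosen after their values were seen. The regions, measures and gene lists were chosen with earlier results of these data known. The number of per-sample columns not used was 0.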

Additional observations from a re-analysis of the deposited data

How the results depend on the processing

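No comparison of the 7 measures passed the adjusted threshold under any alternative. The smallest adjusted p was 0.25 between factors and 0.764 against Control as reported, 0.143 with the whole intron in place of the neighbour window, and 0.382 without Control 1. Against Control (3 against 3 libraries) the smallest possible unadjusted p is 0.1, and with the replicate block 0.0741 between factors and 0.25 against Control, so none of these could pass and they say nothing about stability. Between factors the smallest possible exact permutation p is 0.0238. After adjustment over 21 comparisons it passes only if many comparisons reach it together. Failing to pass there is thus no evidence of stability or of no difference. Capping windows at 3 tags or adding 0.5 to tag counts turned no difference. The groups' replicate numbers coincide with lane sets, and same-numbered libraries deviated together only in part (correlations from -0.131 to 0.248, 0.0194 to 0.198 and -0.436 to 0.410 for numbers 1, 2 and 3). The numbers were therefore not taken as pairs, and with the replicate block the smallest adjusted p were 0.259 and 0.955, no difference turned and edgeR called 0 flank sums.

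Differences that turned are given with these short names, as log2 or points: M1, 5′ flank to neighbour window; M2, 3′ flank to neighbour window; M3, 3′ to 5′ flank; M4, share at bases -30 to -4; M5, exon to intron at the 5′ splice site; M7, uracil share. The 10-base, first-library and 10-tag alternatives were chosen after seeing the data. Without 10 bases next to the splice site, against the other factors, M1 of Alyref was 0.027, M2 of Alyref -0.20, M3 of Alyref -0.26 and M3 of Nxf1 0.099. Against Control, M2 was -0.42 (Alyref) and -0.12 (Chtop), M3 was -0.65 and -0.38, M4 of Chtop 2.69, and M7 was 3.56 (Alyref), 3.02 (Chtop) and 5.56 (Nxf1). Without 3 bases, against the other factors, M2 and M3 of Alyref were -0.068 and -0.082 and M4 of Chtop 0.083. Against Control, M1 of Nxf1 was 0.0068, M2 of Alyref -0.22, M3 of Alyref -0.41 and of Chtop -0.24, M4 of Alyref 6.55 and of Chtop 6.67, and M7 of Nxf1 1.62. With introns of at least 5000 nt, against the other factors, M1 of Nxf1 was 0.0088 and M5 of Chtop -0.029, and against Control M1 of Nxf1 was 0.17, M3 of Chtop -0.022 and M7 of Nxf1 3.06. Without the first libraries, against Control, M1 of Alyref was -0.23 and of Chtop -0.13, while in Nxf1 M3 was 0.12 and M4 -5.25. With flanks in 1 gene only, against Control, M1 of Alyref was -0.018 and M4 of Nxf1 -0.33. With the whole intron, M1 was 0.059 for Alyref against the other factors and 0.16 for Nxf1 against Control. With 50 nt, M1 against Control was -0.0031 for Alyref and 0.026 for Nxf1, and with bases in place of tags 0.015 for Nxf1. The causes were not tested, beyond what the left-out bases show.

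Leaving out 1 library at a time turned 15 differences. Against the other factors, M1 of Alyref ran from -0.13 to 0.057 and that of Nxf1 from -0.20 to 0.061. For Chtop, M3 ran from -0.045 to 0.39, M4 from -2.88 to 0.62, M5 from -0.22 to 0.39 and M7 from -3.78 to 2.26. Against Control, Alyref ran from -0.12 to 0.17 (M1) and -0.14 to 0.49 (M3), and Chtop from -0.061 to 0.22 and -0.16 to 0.47. Nxf1 ran from -0.15 to 0.14 (M1), -0.46 to 0.16 (M2), -0.60 to 0.026 (M3), -3.01 to 4.55 (M4) and -8.82 to 3.07 (M7).

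For tags per gene, edgeR called 0 flank sums as reported, with DESeq2 or its size factors, or with 1 library left out, and 0 had entered the reported fit. Flank sums alone could not be fitted, as 0 passed the filter. With no filter beyond 1 tag, calls lower than Control numbered 3 for Alyref and 12 for Chtop, and lower than Nxf1 1 and 5. With 10 tags they were 3 and 2 lower than Control, 1 and 6 lower than Nxf1, 1 lower in Alyref than in Chtop, and for Chtop 1 higher than Control and 2 higher than Nxf1. Without the first libraries 1 was lower than Nxf1 for each of Alyref and Chtop. Depth limits single flanks to a few tags, and a library of 7017 tags gives wide intervals.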
